A study of Pan troglodytes with 8 samples.

Results

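The proneural and neurogenic bHLH factors described here are 8 transcription factor genes, NEUROG1, NEUROG2, NEUROD1, NEUROD2, NEUROD4, NEUROD6, NHLH1 and NHLH2, out of 60583 named genes in the chimpanzee count table. They were taken by name, and each of the 8 was present in the table and passed the filter on low counts. Their transcripts were measured in cerebral organoids, which are brain-like tissue cultures, grown from SandraA, 1 line of induced pluripotent stem cells of a chimpanzee. No population carried a further treatment or genetic change per the labels. At week 8 of culture, give or take 3 days, cells were sorted by flow cytometry into radial glia, apical (aRG) and basal (bRG), intermediate progenitors, which are basal (bIP), and BCL11B+ neurons (N), with 2 libraries per population. The labels give no sorting marker but BCL11B. They do not say that paired libraries were separate cultures, and the p-values therefore reflect only how far these libraries differ, possibly for technical reasons.

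Basic helix-loop-helix (bHLH) factors bind DNA as dimers through a basic region next to the helix-loop-helix, and the proneural members pair with the widely expressed E proteins. In the developing cortex the neurogenins start neuronal differentiation in dividing progenitors, where Notch signalling and its HES repressors hold them down, and the NEUROD and NHLH genes act after them. ID proteins take E proteins out of these dimers and so oppose the proneural factors.

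Library totals ran from 24649971 to 33245892 counts on the chimpanzee genome, so that a floor of 3 counts in a library corresponded to 0.0884 to 0.129 CPM, the counts of a gene scaled to a common library total (CPM of all genes add up to the same total in each library). Levels are CPM further scaled by TMM (edgeR's trimmed mean of log ratios), and they are compared for 1 gene between populations, not between genes, since no transcript lengths were used. The summed level of 4 intermediate progenitor markers (EOMES, PPP1R17, PENK and SSTR2) was 1984 and 2803 CPM in the bIP libraries against 119 to 429 in the other 6. The summed level of 7 neuronal markers was highest in N, at 3542 and 3726 CPM, and stood at 1648 and 1627 CPM in bIP. BCL11B, 1 of the 7 (mean of 539 CPM in N and 317 in bIP), is also the marker by which N was sorted. Of the 7, RBFOX3 and TUBB3 had higher means in bIP (200 and 25.8 CPM) than in N (137 and 18.1), and the others were higher in N. The part of neuronal transcripts in the bIP levels was not tested. The summed level of 8 radial glia markers was highest in aRG, at 3490 and 3702 CPM. The 7 basal radial glia markers summed to 517 and 722 CPM in bRG and to 594 and 755 in aRG. This sum therefore did not set bRG apart from aRG. It also stood at 613 and 750 CPM in bIP and at 1103 and 712 in N. PTPRZ1, the largest part of it, had a mean of 397 CPM in bRG and 885 in N. Markers of interneurons, of midbrain and hindbrain and of retina, the other neural tissues in which these bHLH genes are known to act, summed to at most 17.9, 11 and 8.98 CPM in any library. Choroid plexus markers stood at 853 and 3195 CPM in aRG and at 30.0 to 74.4 CPM elsewhere, those of mesenchyme, vessels and immune cells at 359 and 1732 CPM in aRG and at most 311 elsewhere, and those of Cajal-Retzius neurons at 14.6 to 64.6 CPM in all. Their part in the comparisons with aRG was not tested.

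**Figure D1:**
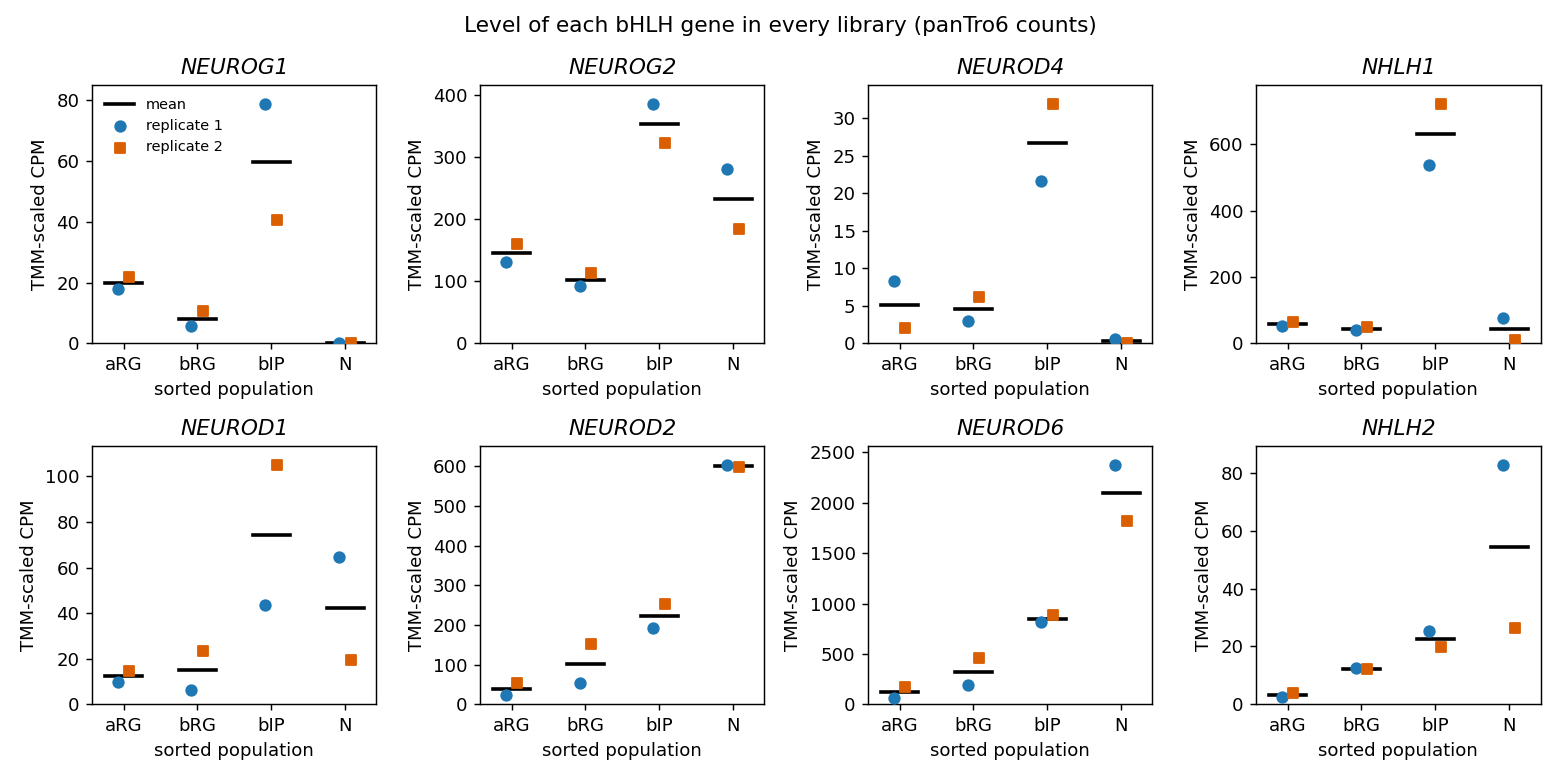
Level of each of the 8 genes (TMM-scaled CPM, linear axis from 0, 1 panel per gene) in the 4 sorted populations; circles and squares are the libraries numbered 1 and 2, and lines are means of the 2. NEUROG1, NEUROG2, NEUROD4, NHLH1 and NEUROD1 have their highest mean in bIP, and NEUROD2, NEUROD6 and NHLH2 in N.

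The 8 genes fell into 5 with their highest mean in bIP (NEUROG1, NEUROG2, NEUROD1, NEUROD4 and NHLH1) and 3 with their highest mean in N (NEUROD2, NEUROD6 and NHLH2). None had its highest mean in aRG or bRG. The order of the 4 populations was the same in the libraries numbered 1 and in those numbered 2 for 5 of the 8, the exceptions being NEUROD1, NEUROD4 and NHLH1. Onset was described as the first population, from aRG to N, at 10% or more of a gene's highest mean. By that measure NEUROG1, NEUROG2, NEUROD1 and NEUROD4 had their onset in aRG, NEUROD2, NEUROD6 and NHLH2 in bRG, and NHLH1 in bIP. NHLH1 was already at 9.22% in aRG, just below the level asked for. NEUROD4 was at 31.2% in aRG replicate 1 and at 7.50% in aRG replicate 2. At 25% only the neurogenins remained in aRG and the other 6 appeared in bIP, and at 5% all 8 were in aRG, so the order of onset depends on the level asked for. In N, NEUROG1, NEUROD4 and NHLH1 had dropped below 50% of their bIP mean. In bulk libraries of sorted cells, fewer expressing cells and less RNA per cell cannot be told apart.

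**Figure D2:**
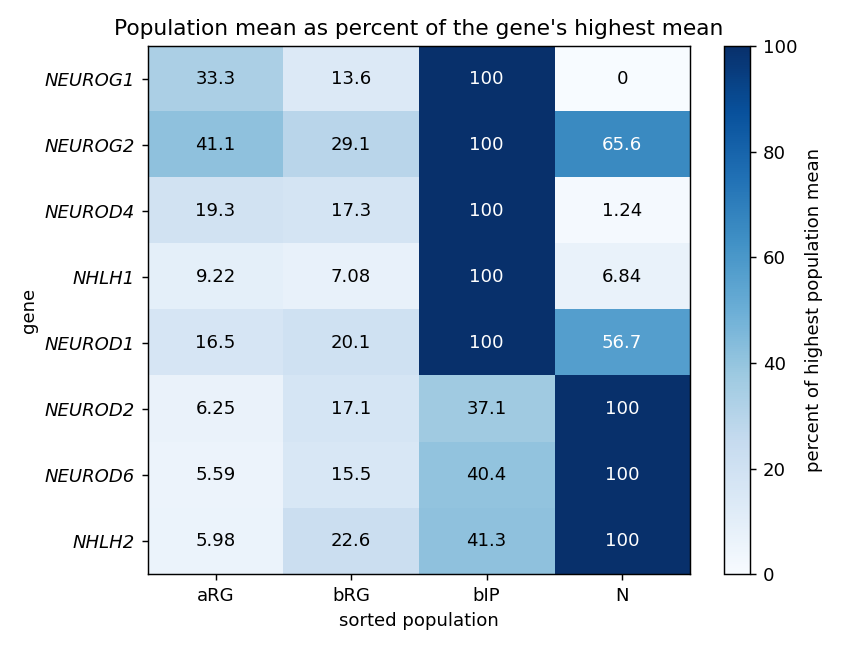
Mean level of each gene (rows) in each population (columns) as a percent of that gene's highest population mean, with 100 marking the highest. In N, NEUROG1 is at 0 and NEUROD4 at 1.24 while NEUROG2 is at 65.6.

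The 2 neurogenins, the proneural genes that start cortical neurogenesis, shared a peak in bIP and parted in neurons. NEUROG1 stood at 17.8 and 21.9 CPM in aRG, 5.64 and 10.6 in bRG, 78.7 and 40.4 in bIP, and had 0 counts in both N libraries. The 4 populations did not overlap for NEUROG1, and both genomes gave 0 in N. NEUROG2 stood at 131 and 160 CPM in aRG, 92.5 and 114 in bRG, 386 and 323 in bIP, and 281 and 184 in N. Its populations did not overlap either, and its order placed N second, above aRG, a difference that did not pass (0.68, SE 0.27, edgeR adjusted p = 0.167).

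Against bRG, NEUROG1 rose in bIP by 2.87 on the log2 scale (SE 0.46, edgeR adjusted p = 0.0158) and NEUROG2 by 1.78 (SE 0.28, edgeR adjusted p = 0.012). Against aRG, NEUROG2 rose in bIP by 1.28 (SE 0.28, edgeR adjusted p = 0.026), while NEUROG1 was at 1.59 (SE 0.44, edgeR adjusted p = 0.0907) and passed in 7 of 17 alternative settings. From bIP to N, NEUROG1 fell at least 485-fold with a floor of 3 counts in each N library (edgeR adjusted p = 0.000152), whereas NEUROG2 was at −0.61 (SE 0.27, edgeR adjusted p = 0.315). NEUROG1 was likewise at least 162-fold lower in N than in aRG and at least 66.1-fold lower than in bRG. NEUROG2, in contrast, was higher in N than in bRG (log2 fold change 1.17, SE 0.28, edgeR adjusted p = 0.0261). The count ratio of NEUROG2 to NEUROG1 within a library showed the same parting, at 7.39 and 7.30 in aRG, 16.4 and 10.7 in bRG, 4.91 and 7.99 in bIP, and at least 2420 and 1422 in N. EOMES, a marker of intermediate progenitors, was at 31.2 and 11 CPM in the same N libraries, which was 1.45% of its bIP mean. The other markers of these cells fell less. SSTR2 had a mean of 329 CPM in N against 763 in bIP, PPP1R17 39.8 against 180, and PENK 1.09 against 1.21. The part of progenitor transcripts in the N level of NEUROG2 was not tested. The call of NEUROG2 over aRG was lost without any 1 of the 4 aRG and bIP libraries (edgeR adjusted p from 0.0632 to 0.175), and that over bRG without bRG replicate 1 (0.0545) or bIP replicate 1 (0.0549), which also ended the call of NEUROG1 (0.0788). The excess of NEUROG2 in N over bRG was not called without bRG replicate 1 (0.219), bRG replicate 2 (0.0504) or N replicate 1 (0.176), nor when only those populations were fitted (0.0757).

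An antisense gene named NEUROG2-AS1 had its own row and could share reads with NEUROG2, since the library protocol does not mark strand. Its counts came to 0.122% to 1.87% of those of NEUROG2 in each library.

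NEUROD4 and NHLH1, bHLH genes of early differentiating cells, had their highest means in bIP. NHLH1 stood at 51.4 and 64.7 CPM in aRG, 39.4 and 49.8 in bRG, 538 and 721 in bIP, and 75.4 and 10.7 in N. Both bIP libraries lay far above the other 6, and the 2 N libraries lay on either side of all 4 radial glia libraries. NHLH1 rose from aRG to bIP by 3.44 on the log2 scale (SE 0.65, edgeR adjusted p = 0.0129), from bRG to bIP by 3.82 (SE 0.66, edgeR adjusted p = 0.0181), and was at −3.87 in N against bIP (SE 0.66, edgeR adjusted p = 0.00892). Each of these 3 calls held in every one of the 17 alternative settings. Its N level was not told apart from that of aRG (−0.43, SE 0.59, edgeR adjusted p = 0.745), with a direction that turned without N replicate 2 (0.38) and a call without N replicate 1 (−2.44). NEUROD4 was at 8.34 and 2.00 CPM in aRG, 3.02 and 6.21 in bRG, 21.6 and 31.9 in bIP, and 0.619 and 0.0432 in N. Those N values rest on 16 counts and 1 count, which were 7 and 1 on the human genome. The bIP libraries were the highest and the N libraries the lowest, and aRG and bRG overlapped. NEUROD4 fell from bIP to N (−6.29, SE 0.99, edgeR adjusted p = 0.00576). The size of this fall rests on the N library used: it was −9.13 without N replicate 1 and −5.42 without N replicate 2, and N stood at 2.86% of bIP in the libraries numbered 1 and at 0.135% in those numbered 2. The level of NEUROD4 in bIP did not pass the test against aRG (2.37, SE 0.80, edgeR adjusted p = 0.177) or bRG (2.53, SE 0.80, edgeR adjusted p = 0.238). NEUROD4 was lower in N than in aRG (−3.91, SE 0.92, edgeR adjusted p = 0.0169) and bRG (−3.75, SE 0.92, edgeR adjusted p = 0.0311). Those 2 calls were lost without N replicate 2 (0.0621 and 0.107), with only the 2 populations in the fit (0.0982 and 0.104) and, for aRG, without aRG replicate 1 (0.0915).

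NEUROD1, a factor of the passage from intermediate progenitor to neuron, had its highest mean in bIP. It stood at 9.72 and 14.8 CPM in aRG, 6.45 and 23.4 in bRG, 43.5 and 105 in bIP, and 64.7 and 19.6 in N. The bIP and N libraries overlapped, as did N and bRG, and in the libraries numbered 1 the highest was N. No pairwise comparison of NEUROD1 passed, where bIP against aRG came nearest (2.60, SE 0.67, edgeR adjusted p = 0.064, and 0.0437 on the human genome), and it passed in 10 of 17 alternative settings. In the comparison of bIP and N together with both radial glia it was higher (2.05, SE 0.46, edgeR adjusted p = 0.0141).

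NEUROD2, NEUROD6 and NHLH2 were higher in N than in aRG, with means ordered aRG, bRG, bIP and N, but no single step between neighbouring populations passed the test. NEUROD2 and NEUROD6 are factors of postmitotic cortical projection neurons. NEUROD6 stood at 65.6 and 169 CPM in aRG, 188 and 462 in bRG, 813 and 884 in bIP, and 2377 and 1818 in N. NEUROD2 stood at 22.1 and 53.1 CPM in aRG, 53.0 and 152 in bRG, 192 and 254 in bIP, and 604 and 599 in N. For NEUROD6 no 2 populations overlapped, and for NEUROD2 only the replicate 2 library of aRG reached the replicate 1 library of bRG. NHLH2 stood at 2.52 and 4.01 CPM in aRG, 12.6 and 12.1 in bRG, 25.3 and 19.8 in bIP, and 82.9 and 26.3 in N, again with no overlap. N replicate 2 of NHLH2 lay just above bIP replicate 1, and its log2 fold change from bIP to N ranged from 0.22 to 1.88 over the 17 alternative settings. Between the ends of the series all 3 were higher in N than in aRG, NEUROD6 by 4.16 on the log2 scale (SE 0.50, edgeR adjusted p = 0.000215), NHLH2 by 4.06 (SE 0.53, edgeR adjusted p = 0.000408) and NEUROD2 by 4.00 (SE 0.52, edgeR adjusted p = 0.000361). These 3 calls held in every one of the 17 alternative settings. The neurons also exceeded bRG, by 2.69 for NEUROD6 (SE 0.47, edgeR adjusted p = 0.0048), 2.55 for NEUROD2 (SE 0.48, edgeR adjusted p = 0.008) and 2.15 for NHLH2 (SE 0.49, edgeR adjusted p = 0.022). The call of NHLH2 was lost without bRG replicate 1 (0.073), bRG replicate 2 (0.06) or N replicate 1 (0.258), and with only these populations in the fit (0.0604). From bRG to bIP the log2 fold changes of NEUROD2, NEUROD6 and NHLH2 were 1.12, 1.39 and 0.87, and none passed (edgeR adjusted p = 0.458, 0.254 and 0.673). From bIP to N they were at 1.43, 1.31 and 1.27 for NEUROD2, NEUROD6 and NHLH2, and none passed (edgeR adjusted p = 0.15, 0.172 and 0.215). NEUROD2 passed there in 6 and NEUROD6 in 5 of 17 alternative settings, among them the fits without either bRG library.

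**Figure D3:**
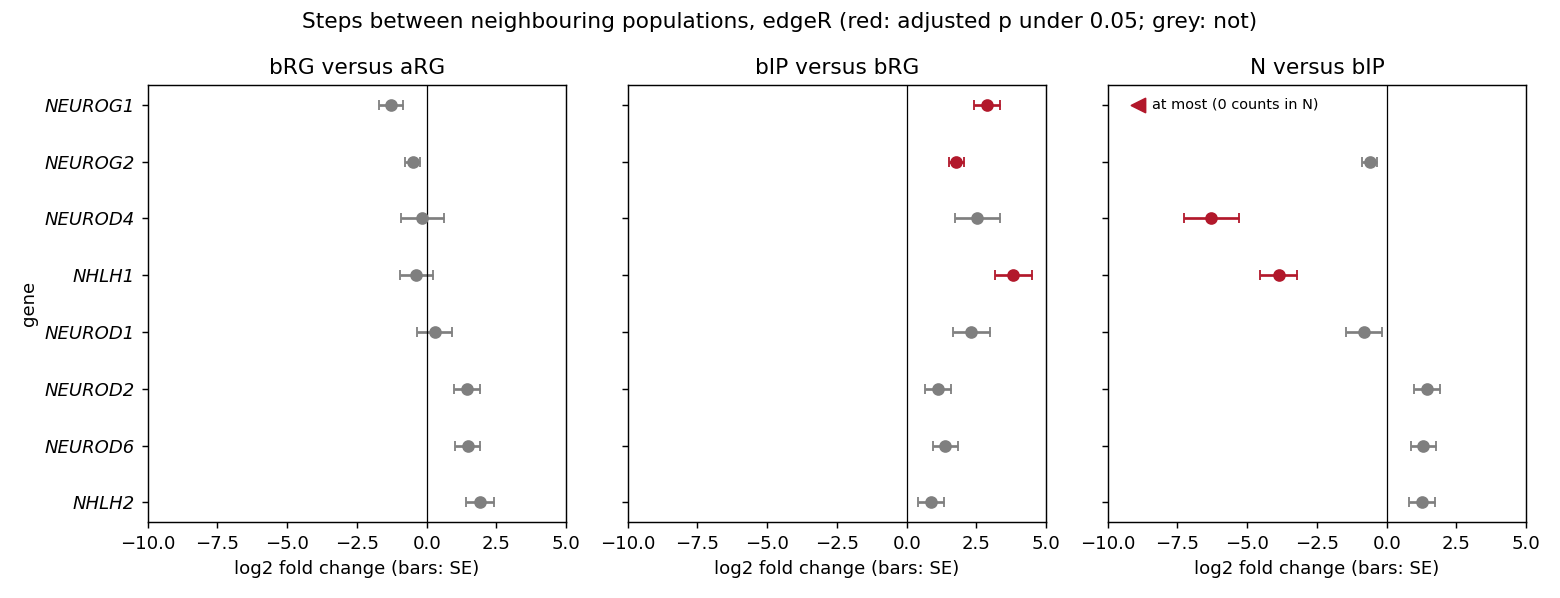
Log2 fold change with its SE for each gene over the 3 steps between neighbouring populations (edgeR); red marks an adjusted p under 0.05, and the arrow for NEUROG1 is an upper bound from a floor of 3 counts. NEUROG1 and NHLH1 are called in both steps at bIP, upward from bRG and downward to N, while NEUROD2, NEUROD6 and NHLH2 lie above 0 in all 3 steps with no step called.

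Counted over the 8 genes, the test across all genes called 5 higher in bIP than in aRG (NEUROG2, NEUROD2, NEUROD6, NHLH1 and NHLH2), where 1.34% of the 35382 genes tested were called higher. DESeq2 called all 8, where it called 4.65% of genes higher. The count was 2 without aRG replicate 1 (NEUROD6 and NHLH1, with NEUROD2 at 0.0571 and NHLH2 at 0.0626) and 8 without N replicate 2. Between bIP and bRG 3 were called higher (NEUROG1, NEUROG2 and NHLH1) against 0.458% of genes, a count of 1 without bIP replicate 1 and of 6 without bRG replicate 2. DESeq2 called 6 of the 8 there, where it called 2.56% of genes higher. Between N and bIP 3 were lower (NEUROG1, NEUROD4 and NHLH1) against 1.48% of genes and 0 were higher against 1.06%. Before adjustment, edgeR gave 3 of the 8 a p under 0.05 in the upward direction, as it did for 6.88% of genes. DESeq2 called the same 3 lower against 4.84% of genes, and called NEUROD2 higher against 3.53%. Without bRG replicate 1 or without bRG replicate 2 the count of N against bIP was 5. Between N and aRG 3 were higher against 4.87% of genes and 2 lower (NEUROG1 and NEUROD4) against 4.80%. Between N and bRG 4 were higher (NEUROG2, NEUROD2, NEUROD6 and NHLH2) against 2.62% and 2 lower (NEUROG1 and NEUROD4) against 3.39%. Calls over all genes also changed in the fits that leave out 1 library.

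Separation of the library values was wider than the calls. All 8 genes had no overlap between bIP and aRG, where 42.8% of genes had none, and all 8 had none between bIP and bRG, where 39.5% had none. NEUROD1 alone overlapped between N and bIP (45.1% of genes had no overlap), and NHLH1 alone between N and aRG (49.2%). NEUROD1 and NHLH1 overlapped between N and bRG (49.1%).

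The median log2 fold change of the 8 was 2.58 for bIP against aRG, where the median of all genes was 0.05. For N against bIP it was −0.71, with −0.10 for all genes, and it was the same with NEUROG1 at its bound. Comparisons that share a population share its libraries, so these counts are not independent of each other.

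The level in bIP was also set against the mean of bRG and N on the log2 scale, a contrast that can pass on a difference from 1 of them alone. Of the 8 genes 4 were higher there (NEUROG1, NEUROG2, NEUROD4 and NHLH1), where 0.418% of all genes were. NHLH1 exceeded that mean by 3.84 (SE 0.50, edgeR adjusted p = 0.00672), NEUROD4 by 4.41 (SE 0.68, edgeR adjusted p = 0.0149) and NEUROG2 by 1.20 (SE 0.23, edgeR adjusted p = 0.0416). NEUROG1 and NHLH1 were also called against bRG and against N separately. NEUROD4 was not called against bRG (edgeR adjusted p = 0.238), nor NEUROG2 against N (edgeR adjusted p = 0.315), and the NEUROG1 value is set by its 0 counts in N. NEUROD1 did not pass (1.57, SE 0.53, edgeR adjusted p = 0.309). NEUROD2, NEUROD6 and NHLH2 were at −0.16, 0.04 and −0.20, as for genes whose bIP level lay midway on the log scale. Without bIP replicate 2 only NEUROG1 and NHLH1 passed, NEUROD4 being at 0.0776 and NEUROG2 at 0.2. The call of NEUROG2 was lost also without bRG replicate 1 (0.0502), bIP replicate 1 (0.227) or N replicate 2 (0.0826), and with only these 3 populations fitted (0.0615).

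With bIP and N set together against aRG and bRG, 6 of the 8 genes were higher, where 4.47% of all genes were. NEUROD6 led (2.77, SE 0.33, edgeR adjusted p = 0.000198), followed by NEUROD2 (2.56, SE 0.34, edgeR adjusted p = 0.000447). NEUROG1 was called lower, where 4.92% of genes were, on the log scale of the fit, in which 0 counts in N enter as a very low level. Its mean CPM over the 4 libraries was higher, at 29.8 against 14.0. NEUROD4 did not pass (−0.69, SE 0.58, edgeR adjusted p = 0.581), and NHLH1 lost its call without N replicate 1 (0.0658).

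For bRG against aRG, only 1 of the 35382 genes tested passed after adjustment in edgeR (0.00283%), and 0 of the 8 did. With so few calls among all genes, the lack of calls cannot decide whether these 8 differ between the 2 kinds of radial glia. Before adjustment, NEUROD2, NEUROD6 and NHLH2 had a p under 0.05 in the upward direction, as 2.56% of genes did, and NEUROG1 in the downward direction, as 1.16% did. DESeq2 called NHLH2, where it called 0.344% of genes higher. NHLH2 was at 1.91 (SE 0.49, edgeR adjusted p = 0.698, DESeq2 adjusted p = 0.0404), NEUROD6 at 1.47 (SE 0.45, edgeR adjusted p = 0.957), NEUROD2 at 1.45 (SE 0.47) and NEUROG1 at −1.29 (SE 0.44). The libraries of bRG and aRG did not overlap for NEUROG1, NEUROG2, NEUROD6, NHLH1 and NHLH2, and 31.6% of all genes tested showed no overlap in this comparison. Over the 17 alternative settings the log2 fold change ran from 0.46 to 2.22 for NEUROD2 and from 0.65 to 2.31 for NEUROD6. The 7 neuronal markers, summed, were also higher in bRG (563 and 1090 CPM) than in aRG (279 and 452 CPM), and their part in these differences was not tested.

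Between the 2 libraries of a population, genes of at least 10 CPM differed by a similar median in all 4. On the log2 scale it was 0.34 in N, 0.33 in bRG, 0.32 in aRG and 0.30 in bIP. Of the 8 bHLH genes, 4 differed over 2-fold in N, 4 in bRG, 3 in aRG and 1 in bIP. Their largest ratios were in N. The 7 bHLH genes with counts there were all higher in N replicate 1 than in N replicate 2, from 1.01-fold for NEUROD2 and 1.31-fold for NEUROD6 to 3.15-fold for NHLH2, 3.30-fold for NEUROD1, 7.04-fold for NHLH1 and 14.3-fold for NEUROD4, the last on 1 count in replicate 2. EOMES was 2.84-fold and SOX2, a stem cell factor, 2.13-fold higher in the same library, while BCL11B was at 0.828-fold. In aRG and in bRG 7 of the 8 genes were higher in replicate 2. NEUROD6 in replicate 1 was at 0.388-fold of replicate 2 in aRG and at 0.406-fold in bRG, and EOMES at 0.491-fold and 0.403-fold. The exceptions were NEUROD4 in aRG (4.16-fold higher in replicate 1) and NHLH2 in bRG (1.04-fold). In bIP 3 were higher in replicate 1 and 5 in replicate 2, and NEUROD1 differed most there (0.414-fold). The part of EOMES-expressing or other cells in these differences was not tested.

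**Figure D4:**
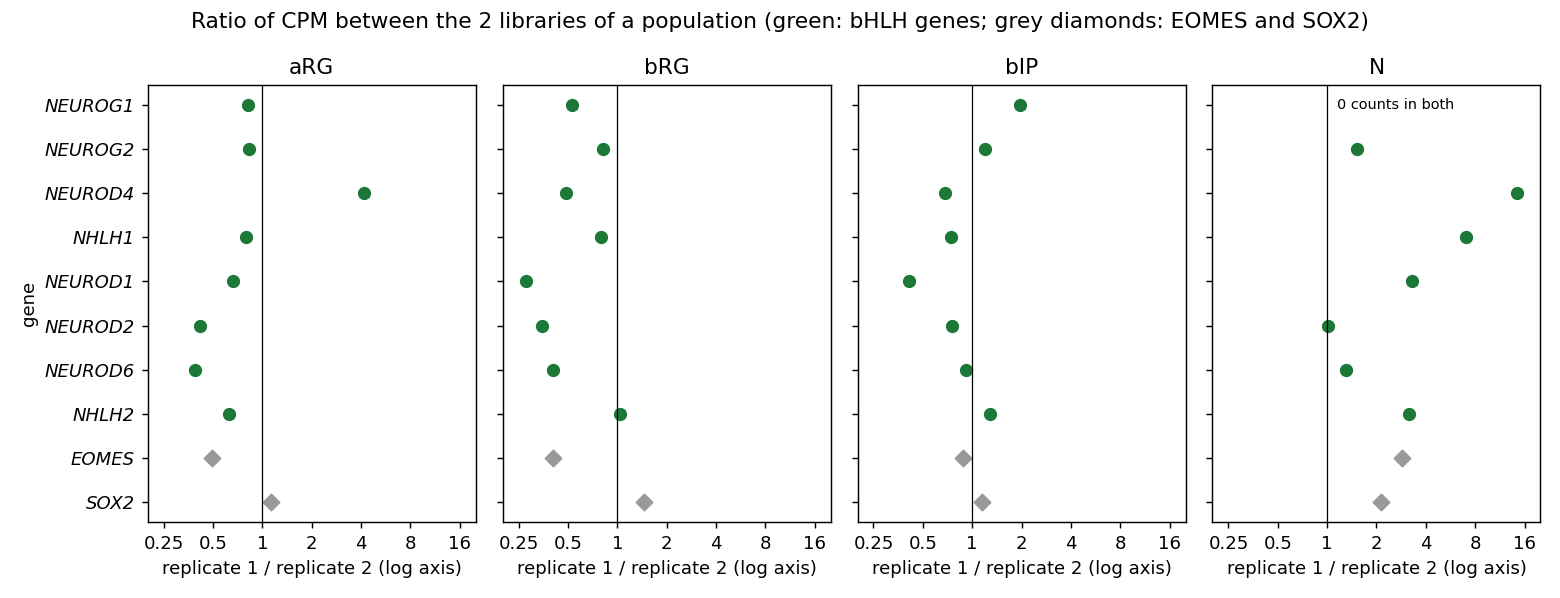
Ratio of the CPM in replicate 1 to that in replicate 2 for each gene (log axis, 1 panel per population); green circles are the bHLH genes, and grey diamonds are EOMES and SOX2. In N all 7 genes with counts lie to the right of 1, and in aRG and in bRG 7 of 8 lie to the left.

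The list of 7 dimer partners and inhibitors holds the E proteins TCF3, TCF4 and TCF12 and the inhibitors ID1 to ID4. In bIP against aRG 2 of them fell, where 1.5% of all genes did (median −0.08). Those were ID4, from 622 ± 46.2 CPM in aRG to 109 ± 7.23 in bIP (mean ± SD, n = 2 here and below; log2 fold change −2.51, SE 0.28, edgeR adjusted p = 0.000648), and ID3 (−2.54, SE 0.56, edgeR adjusted p = 0.0307). ID4 fell again from bIP to N (−2.54, SE 0.28, edgeR adjusted p = 0.000699), as did the E protein TCF3 (−1.59, SE 0.29, edgeR adjusted p = 0.0134). TCF4, another E protein, was higher in bIP than in bRG (1.26, SE 0.26, edgeR adjusted p = 0.0419). Of the 2 others with the smallest adjusted p for bIP against aRG, TCF4 was at 0.94 (edgeR adjusted p = 0.0841) and ID1 at −2.27 (0.194).

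Among 6 Notch-regulated repressors, 5 were tested and 1 fell from aRG to bIP, where 1.5% of all genes fell. This was HES1, the repressor of proneural genes (−4.05, SE 0.40, edgeR adjusted p = 0.000539), at 300 ± 104 CPM in aRG, 142 ± 42.9 in bRG, 18.1 ± 6.82 in bIP and 3.51 ± 0.881 in N. From bIP to N, where 1.48% of all genes fell, HES1 fell again (−2.36, SE 0.38, edgeR adjusted p = 0.00691), together with HEY2 (−3.90, SE 0.73, edgeR adjusted p = 0.0143). HEYL (−3.69, edgeR adjusted p = 0.0806), HEY1 (−1.52, 0.12) and HEY2 (−1.30, 0.422) did not pass for bIP against aRG. HES5 was listed at 0 in every library of the chimpanzee table but had 8 to 1349 counts per library on the human genome, with means of 70.1 CPM in aRG, 53.2 in bRG, 10.2 in bIP and 1.71 in N. BTG2 and CBFA2T3, of the downstream list, were also at 0 in the chimpanzee table and counted on the human genome, so 3 of 44 list genes could not be read from the chimpanzee table.

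Of 11 other neural bHLH genes 9 were tested, and BHLHE22, a factor of cortical projection neurons, was the 1 that rose from aRG to bIP, where 1.34% of all genes rose (3.25, SE 0.51, edgeR adjusted p = 0.00442). It stood at 30.6 ± 6.39 CPM in aRG, 66.0 ± 2.61 in bRG, 292 ± 69.1 in bIP and 524 ± 441 in N. From bIP to N, ATOH8 fell (−3.15, SE 0.60, edgeR adjusted p = 0.0154). NEUROG3, the third neurogenin, had means of 0.0295 to 1.32 CPM. The next by adjusted p for bIP against aRG were ATOH8 (−1.77, 0.121), NEUROG3 (0.325) and ATOH7 (2.68, 0.36), and none passed.

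Of 20 genes known as neurogenin targets, or as acting downstream of neurogenins, 18 were tested and 11 rose from aRG to bIP, where 1.34% of all genes rose. The median of the 18 was 1.99 against 0.05 for all genes. CXCR4, a chemokine receptor, was the 1 gene of the list below 0, at −2.76 (SE 0.70, edgeR adjusted p = 0.0614, DESeq2 adjusted p = 0.000263). The smallest adjusted p belonged to DLL3, a Notch ligand family member (4.65, SE 0.50, edgeR adjusted p = 0.000606), MYT1, a zinc finger factor of neuronal commitment (3.70, SE 0.41, edgeR adjusted p = 0.000648), ELAVL4, a neuronal RNA-binding protein (2.06, SE 0.25, edgeR adjusted p = 0.00108), and TBR1, a deep-layer neuron factor (3.37, SE 0.45, edgeR adjusted p = 0.00195). From bIP to N 8 of the 18 fell, where 1.48% of all genes did (median −1.66), and 3 of the 18 were above 0 (TBR1, DCX and SOX4). EBF2, an early differentiation factor, was at −5.67 (SE 0.72, edgeR adjusted p = 0.00161) and EOMES at −6.10 (SE 0.62, edgeR adjusted p = 0.000398), while TBR1 was at 0.72 (edgeR adjusted p = 0.448). Several of these genes are also markers of the sorted populations, and the list was chosen with earlier results known.

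**Figure D5:**
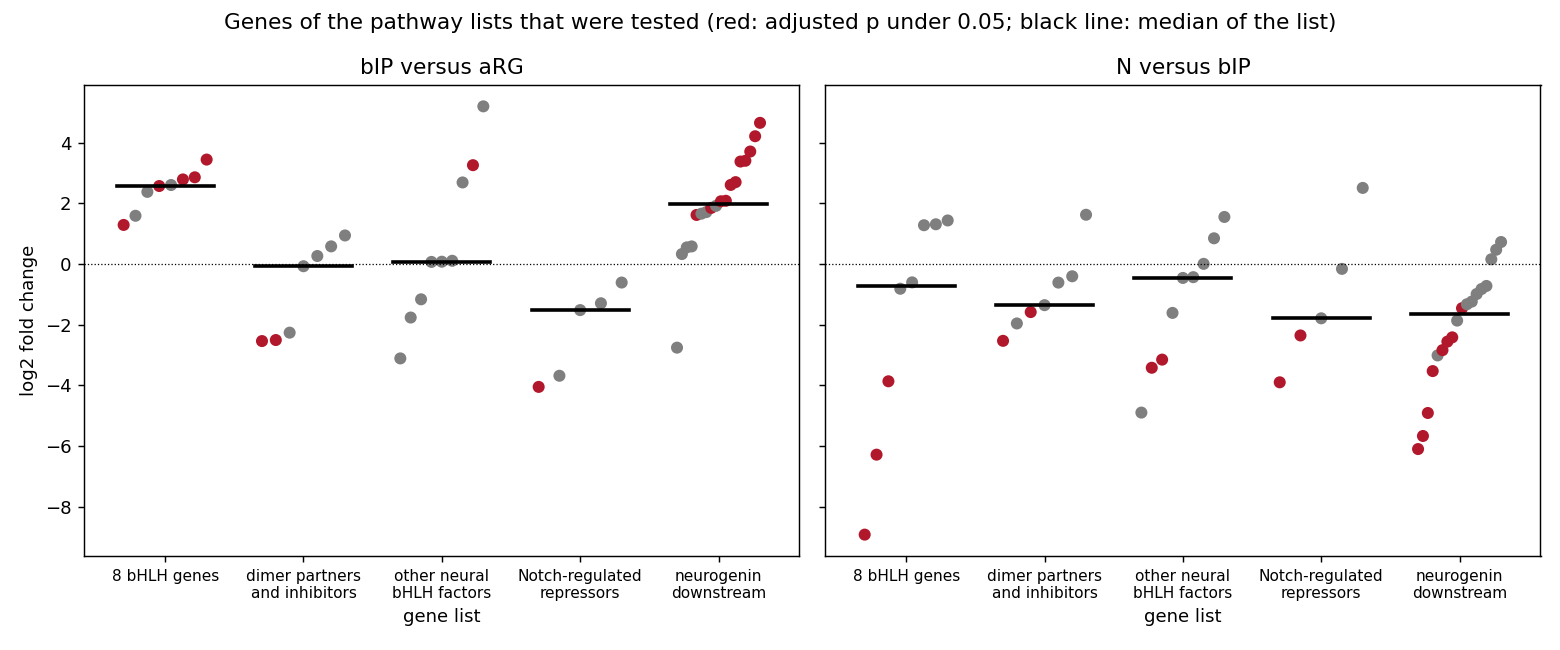
Log2 fold change of every tested gene of the 8 bHLH factors and of the 4 pathway lists for bIP against aRG and for N against bIP (edgeR); red marks an adjusted p under 0.05 and the black line is the median of the list, with NEUROG1 drawn at its bound for N against bIP. The medians of the bHLH genes and of the downstream genes are 2.58 and 1.99 for bIP against aRG and −0.71 and −1.66 for N against bIP.

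The genes most like each factor over the 8 libraries were sought by Pearson correlation of log2(CPM + 1), among genes with a mean of at least 10 CPM. The libraries of a population share its sort, so these values are descriptions. NEUROD6 was closest to SCG3 (r = 0.994), CLMP (0.994) and NMNAT2 (0.993), and NEUROD2 to MYT1L (0.993), CLMP (0.993) and CAMSAP3 (0.992). NHLH1 was closest to TTC39B (0.990), MAML3, a Notch coactivator (0.984), and HES6, a bHLH factor of differentiating progenitors (0.975), and HES6 stood at 95.5, 79.4, 343 and 58.1 CPM from aRG to N. NEUROG2 was closest to PDE9A (0.978), MGAT5 (0.968) and VASH1 (0.960), and NEUROG1 to RGS16 (0.963), STAT5B (0.961) and NRIP1 (0.959). For NEUROD1 these were NEDD4L (0.958), SEMA6C (0.957) and SPIRE1 (0.941), for NEUROD4 SDAD1P1 (0.958), AK9 (0.952) and NRP1 (0.947), and for NHLH2 FBXO25 (0.983), TMOD2 (0.975) and NCOA4 (0.975). Among the 8 themselves, NEUROD2 and NEUROD6 were the closest pair (0.995), with a count ratio of NEUROD6 to NEUROD2 between 2.96 and 4.23 in all 8 libraries. NEUROG1 was closest to NEUROD4 (0.887) and was at 0.213 with NEUROG2, which was itself closest to NEUROD1 (0.861). The paralogs NHLH1 and NHLH2 were at 0.156. The count ratio of NHLH2 to NHLH1 was 0.0489 and 0.0620 in aRG, 0.320 and 0.242 in bRG, 0.0471 and 0.0275 in bIP, and 1.1 and 2.46 in N.

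The same libraries had fewer counts on the human genome (totals of 11635116 to 16447389) but gave fold changes close to these. Of the 64 fold changes of the 8 genes over 8 comparisons all 64 had the same sign, with a median absolute difference of 0.06 on the log2 scale. The 33 calls on the chimpanzee genome were all made on the human genome too, which called 34, the extra being NEUROD1 in bIP against aRG. Of all genes on the human genome, 0.00612% were called for bRG against aRG, 7.28% for bIP against aRG, 2.96% for bIP against bRG and 5.74% for N against bIP. The shares were 19.2% for N against aRG, 12.2% for N against bRG, 19.1% for bIP and N against both radial glia, and 1.3% for bIP against bRG and N. NEUROG1 again had 0 counts in both N libraries. Raw counts on the chimpanzee genome were 1.99 to 2.02 times those on the human genome for NEUROG2. This ratio was 1.97 to 2.00 for NEUROD6, 1.65 to 1.74 for NEUROD2 and 1 to 2.29 for NEUROD4. The reason for it was not tested. The ratio of chimpanzee to human CPM, with 1 CPM added to both, averaged −0.29 on the log2 scale for NEUROD2 and −0.17 for NHLH1 and NHLH2. For the other 5 it lay between −0.07 and −0.06, where the median of 9636 shared genes was −0.18 and 90% of these lay between −0.68 and 0.05.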

How the data were processed

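RNA-seq libraries of 4 sorted populations with 2 libraries each were used. Libraries were made, per the labels' protocols, from 10000 cells each with 12 to 17 cycles of PCR by a Smart-seq2 variant that marks neither strand nor molecules, so counts include PCR copies and intervals and floors cover counting error only. The authors deposited whole-number read counts per gene on panTro6 (main table) and hg38. STAR is named per the submitters' processing notes. Annotation and counter: not given in the sources used here. A row with no gene name, 0.00545% to 0.00771% of each library, was left out. All columns were matched to a sample.

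Counts were tested with edgeR 4.0.16 (quasi-likelihood, glmQLFit and glmQLFTest, filterByExpr, TMM, R 4.3.3) in a single fit of all 8 libraries with a coefficient per population, two-sided, with Benjamini-Hochberg adjustment over 35382 genes in each of 8 comparisons and a threshold of 0.05. A gene past it is described as called. SEs come from the F statistic. The fit was tested on simulated data. Alternatives were DESeq2 1.42.0, other scaling and filters, the hg38 table, halved counts, a replicate block, robust estimation, fits of only the populations compared, and leaving out each library.

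The named genes are the 8 factors, the 4 genes of each pathway list with the smallest adjusted p for bIP against aRG beside other list members given with their values, and the genes most like each factor (at least 10 CPM, a regular symbol). The genes and lists were chosen with earlier results of these data known. The values of 1 list gene are not reported here. RefSeq genes of another chimpanzee assembly matched all 8 symbols and served only to look for overlapping genes: 1 of the 8, NEUROD4, overlaps a noncoding gene that has no row of that name in the table.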

Additional observations from a re-analysis of the deposited data

How the results depend on the processing

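Of 64 fold changes (8 genes over 8 comparisons) 33 were called, and over 17 alternative settings none of the 33 changed direction, 21 kept their call in every setting that could be fitted and 12 lost it in at least 1. DESeq2 called 1 of the 8 genes for bRG against aRG (NHLH2), 8 for bIP against aRG and 6 for bIP against bRG. With no low-count filter the counts were 3, 8 and 7 for these comparisons and 6 for N against bIP. Calls over all genes also rose without the filter, from 1 to 215, 1002 to 2159, 365 to 1187 and 900 to 2264, and under DESeq2 to 118, 2303, 1178 and 2501. With only the populations compared in the fit they were 5 for N against bIP and 3 for N against bRG. No such smaller fit exists for bIP and N against both radial glia. The causes were not tested. Leaving out 1 library gave 0 to 2 for bRG against aRG, 2 to 8 for bIP against aRG, 1 to 6 for bIP against bRG, 3 to 5 for N against bIP, 4 to 6 for N against aRG, 4 to 6 for N against bRG, 6 to 7 for bIP and N against both radial glia, and 2 to 5 for bIP against bRG and N. In such fits the lone library is assumed to vary like the others. Calls over all genes rose and fell between these fits as well, so the ranges are not particular to the 8 genes.

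The labels do not say what the replicate numbers mark. Over all genes tested, deviations of same-numbered libraries correlated weakly but above 0, at 0.05 to 0.10 over the 6 pairs of populations. A replicate shift shared by only some of the genes was not tested. With the replicate number as a block the counts were 7 for bIP against aRG, 5 for bIP against bRG and 5 for N against bIP, where NEUROD2 and NEUROD6 were added in the last 2, and 0, 6, 6, 7 and 4 for the other comparisons. Calls over all genes rose with the block as well, from 1002 to 2122, 365 to 1121 and 900 to 2165 in the first 3. For bRG against aRG they rose from 1 to 39.

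Onset in bIP was counted for 1 gene, for 0 at 5%, for 6 at 25% and for 1 to 3 when either replicate number was left out (3 without replicate 2: NEUROD2, NEUROD6 and NHLH1). Without replicate 1 the onset of NEUROD4 moved from aRG to bRG and that of NHLH2 from bRG to aRG. A fall after bIP was counted for 3 genes, for 5 at 67%, and for 3 to 4 when either replicate number was left out.

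Fold changes that were not called turned sign in some settings. For bRG against aRG, NEUROD4 was at 0.070 with the replicate block and at −0.85 to 1.16 over the fits that leave out 1 library, and NEUROD1 at −0.95 to 0.91 over the latter. Over these fits NHLH1 was at −2.44 to 0.38 for N against aRG and −2.06 to 0.76 for N against bRG, both called without N replicate 1. For bIP against bRG and N the ranges were −0.43 to 0.33 for NEUROD2, −0.20 to 0.45 for NEUROD6 and −0.51 to 0.32 for NHLH2. Depth limits NEUROG1 and NEUROD4 in N, at 0 and at 16 and 1 counts.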
